A study of Mus musculus with 4 samples.

Results

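The androgen-binding secretoglobins of the mouse were followed here through 8 genes, *Scgb2b2*, *Scgb2b7*, *Scgb2b15*, *Scgb2b20*, *Scgb2b24*, *Scgb2b27*, *Scgb1b2* and *Scgb1b27*, out of 32575 genes or unnamed transcripts on the array. They were selected with the array values themselves in view, namely the processed signal in both tissues and both genotypes and the scanner's call of whether a spot lay well above its background, so these values are a description. Of the 8 genes, 7 had a probe whose RefSeq accession matched, on 8 probes in all. No probe matched *Scgb2b7*. Of the 7 measured genes, 3 were well above background on at least 1 array and 4 were not on any array.

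RNA was taken from 2 organs, spinal cord and duodenum, of male mice, one genotype being IP6K2-KO, which lack a kinase-domain exon of the inositol hexakisphosphate kinase gene *Ip6k2*, and the other their IP6K2-WT littermates. All mice were 20 weeks old, were kept on the CE-2 diet, were moved to the purified iVid-neo diet for 1 week and were then fasted for 48 h, so fasting and the purified diet are shared by all groups. Each genotype and tissue was hybridized to a single one-colour array, giving 4 arrays. No difference between arrays therefore has a replicate check, no test was possible, and whether an RNA was pooled from several mice is not given in the sources used here.

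Mouse androgen-binding proteins are small secreted dimers. An alpha subunit, encoded by an *Scgb1b* gene, is joined to a beta or gamma subunit, encoded by an *Scgb2b* gene. They are best known from saliva and tears, they bind androgens in vitro, and they have been studied as signals in mate recognition between mouse subspecies. Their genes form a tandem cluster on chromosome 7, with alpha genes and beta or gamma genes often side by side. In the RefSeq annotation of GRCm38.p6 the cluster held 35 protein-coding genes, 14 *Scgb1b* and 21 *Scgb2b*. The array, designed on an older build, had a matched probe for 4 of the *Scgb1b* genes and 7 of the *Scgb2b* genes. Along the cluster, *Scgb1b2* and *Scgb2b2* were the neighbouring genes 2 and 3, *Scgb2b7* was gene 8, *Scgb2b15* gene 18, *Scgb2b20* gene 26, *Scgb2b24* gene 29, and *Scgb2b27* and *Scgb1b27* were the neighbouring genes 33 and 34.

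The 250 bases before the annotated start are shown for the 3 genes whose signal carried the results and, for comparison, for *Scgb2b24*, which was not well above background on any array although its sequence is much like theirs. They were read 5′ to 3′ on the strand of the gene from RefSeq promoter windows of GRCm38.p6, in which all 8 genes had an entry. Capitals mark the letters TGTTCT or their reverse complement AGAACA, one arm of the palindromic element bound by the glucocorticoid receptor. They also mark TATAAA, the letters of the TATA box, or its reverse complement TTTATA.
Scgb2b2, chr7:31302519-31302768, + strand: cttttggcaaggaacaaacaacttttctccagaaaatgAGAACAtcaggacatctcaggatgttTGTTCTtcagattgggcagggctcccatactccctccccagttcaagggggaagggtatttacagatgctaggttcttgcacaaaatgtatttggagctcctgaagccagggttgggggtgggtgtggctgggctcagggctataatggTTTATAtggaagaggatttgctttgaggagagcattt
Scgb2b15, chr7:32829654-32829903, - strand: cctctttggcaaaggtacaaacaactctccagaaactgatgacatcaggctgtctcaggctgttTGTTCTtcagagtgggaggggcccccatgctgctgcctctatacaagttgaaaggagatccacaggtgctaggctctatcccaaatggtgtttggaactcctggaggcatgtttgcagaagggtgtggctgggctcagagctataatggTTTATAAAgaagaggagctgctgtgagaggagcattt
Scgb2b20, chr7:33366320-33366569, - strand: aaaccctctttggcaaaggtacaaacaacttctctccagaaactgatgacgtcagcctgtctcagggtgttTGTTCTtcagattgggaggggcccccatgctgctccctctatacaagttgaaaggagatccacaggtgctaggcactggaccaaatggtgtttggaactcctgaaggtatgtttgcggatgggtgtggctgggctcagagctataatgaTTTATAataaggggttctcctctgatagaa
Scgb2b24, chr7:33739296-33739545, - strand: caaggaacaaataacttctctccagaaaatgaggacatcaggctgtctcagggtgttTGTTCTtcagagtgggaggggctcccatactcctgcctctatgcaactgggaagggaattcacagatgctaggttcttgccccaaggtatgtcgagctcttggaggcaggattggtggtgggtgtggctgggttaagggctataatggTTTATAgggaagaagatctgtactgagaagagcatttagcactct

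TGTTCT was found, on either strand, in 5 of the 8 members and in 19 of the 29 *Scgb1b* and *Scgb2b* promoters in the RefSeq table, against 16.1% of all 32851 promoters of the same length. It began 186 bases before the start of *Scgb2b2* and of *Scgb2b15*, 182 before *Scgb2b7*, 179 before *Scgb2b20* and 193 before *Scgb2b24*, in the same orientation each time. *Scgb2b2* held a further copy 212 bases before the start in the opposite orientation. None was found in the windows of *Scgb2b27*, *Scgb1b2* or *Scgb1b27*. The full palindrome of both arms 3 bases apart was in none of the 29 windows and in 3 of all promoters. TATAAA was found, on either strand, in 6 of 8 members and in 19 of these 29, against 12.4% of all promoters. It lay 29 to 45 bases before the start. On the strand of the gene it read TATAAA in *Scgb2b15* and *Scgb1b2* only. In *Scgb2b2*, *Scgb2b7*, *Scgb2b20* and *Scgb2b24* only the reverse complement TTTATA was present. The 2 matches in *Scgb2b15* overlap. CCAAT, searched on both strands, was in 3 of the 8 members and in 33.8% of all promoters, and the letters GATAAG, CAAAGTCCA and TTTATG, searched the same way, were in no member and in 6.55%, 0.384% and 10.8% of all promoters. Several of these windows are close copies of one another, as given below, so the 29 are not independent promoters. Such matches describe letters only. Whether a receptor binds there was not measured.

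**Figure D1:**
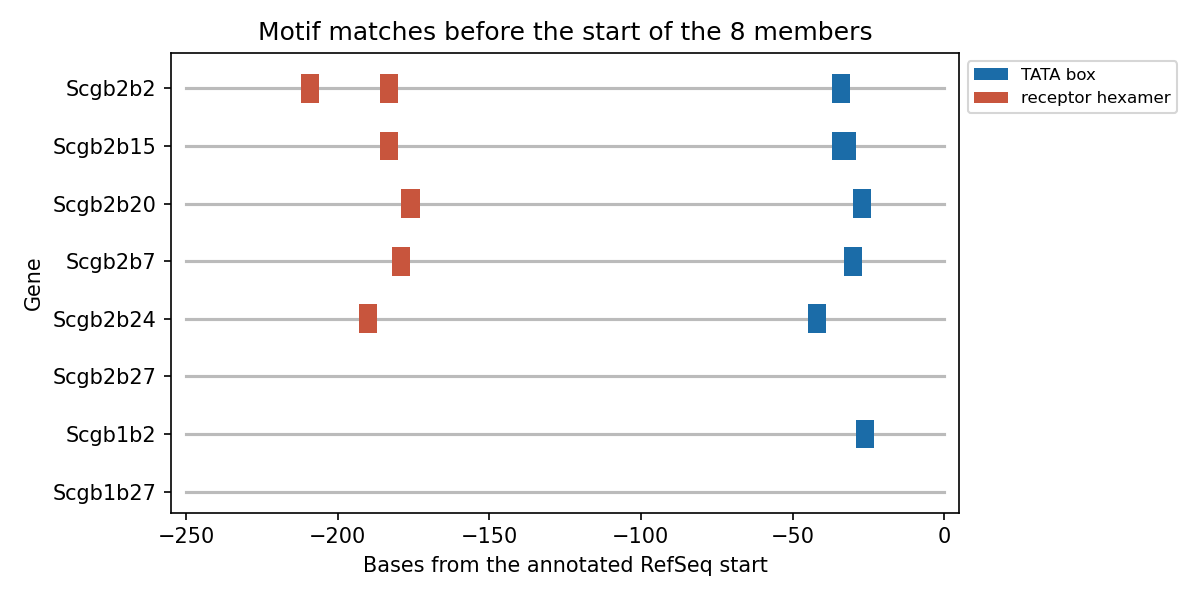
Matches of the receptor hexamer TGTTCT and of the TATA box in the 250 bases before the annotated RefSeq start of the 8 members. The horizontal axis is the distance from the start in bases and each bar covers one match on either strand. The hexamer lies 179 to 193 bases before the start in 5 *Scgb2b* genes. The letters of the TATA box, read on either strand, lie 29 to 45 bases before it in 6 genes.

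The windows of 300 bases, which reach 50 bases past the start, were alike among the *Scgb2b* members. Identity between their pairs ran from 72.3% to 98.7% over 15 pairs, and was 98.7% between *Scgb2b20* and *Scgb2b7*. Where *Scgb2b27* was in the pair the alignment covered 230 to 245 columns. The *Scgb1b* pair was 76.4% identical over 237 columns, and *Scgb1b* windows did not align with *Scgb2b* windows. Some genes of the cluster outside the 8 were also close, since *Scgb2b10* and *Scgb2b17* were 100% identical to *Scgb2b15*, and *Scgb2b11* was 96.7% identical to *Scgb2b20*. The closest to *Scgb2b2* was *Scgb2b3*, at 85.6%. No probe matched *Scgb2b3*, *Scgb2b10*, *Scgb2b11* or *Scgb2b17*. Whether the probe of one gene also reads RNA of other copies was not tested. The windows cannot decide it, since most of their bases lie before the start. The values given for *Scgb2b2*, *Scgb2b15* and *Scgb2b20* may therefore belong to more than 1 gene.

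The arrays themselves differed. The 75th percentile of the processed signal, which is the spot's brightness after the scanner software had subtracted background, was 905 on the WT spinal cord array, 972 on the array labelled IP6K2-KO spinal cord, 68.0 on the WT duodenum array and 323 on the array labelled IP6K2-KO duodenum. The share of probes well above background ran from 51.6% on the WT duodenum array to 77.4% on the KO-labelled spinal cord array. The *Ip6k2* probe read 451 (WT) and 1320 (KO-labelled) in spinal cord and 139 (WT) and 572 (KO-labelled) in duodenum, and it was not lower on either KO-labelled array before scaling. Relative to the 75th percentile it was 1.45 higher (log2) on the KO-labelled spinal cord array and -0.21 different in duodenum. The sources used here do not say whether this probe lies in the removed exon, so it does not check the genotypes. By enterocyte and neuron genes the tissues fitted their labels. The 11 enterocyte genes, among them *Vil1* and *Fabp2*, summed to 183701 and 411594 on the duodenum arrays and to 147.9 and 187.2 on the spinal cord arrays. The 7 neuron genes measured summed to 249651 and 257280 in spinal cord and to 1226 and 3429 in duodenum. The duodenum arrays also carried bright pancreatic acinar genes, which summed to 1465161 in WT and 2402301 in the KO-labelled duodenum. Genes of duodenal gland and gastric mucus summed to 86910 and 343566 there, most of it from *Tff2*, at 77412 and 228260. *Muc5ac* of that list read 6.27 in WT and 290 in the KO-labelled duodenum. Which tissues the RNA held beyond the label was not tested.

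In the duodenum all 3 detected members were bright on the WT array and much dimmer on the array labelled IP6K2-KO. All 3 encode beta or gamma subunits. No alpha subunit gene was detected beside them. Relative to the 75th percentile of each array they were lower by 12.9-fold to 19.3-fold, whereas the median of the 16810 genes measured in both genotypes differed by -0.12 on the log2 scale. In bulk RNA such as this, fewer cells of a type and less RNA per cell cannot be told apart.

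*Scgb2b20* was the brightest member. Its processed signal was 39.7 in WT spinal cord, 42.2 in KO-labelled spinal cord, 1850 in WT duodenum and 679 in KO-labelled duodenum, all well above background. The probe was thus brighter on both duodenum arrays than on both spinal cord arrays. After subtraction of the 75th percentile the KO-labelled duodenum lay -3.69 (log2) from WT. Its technical SD was 0.0695, which is the spread expected from spots alone: it was taken from the 50 replicate probes nearest in brightness among 397 probes printed 10 times on each array, and it covers neither animals nor labelling.

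*Scgb2b2* read 5.70 in WT spinal cord, 5.64 in KO-labelled spinal cord, 1085 in WT duodenum and 309 in KO-labelled duodenum, and was well above background on all 4. Its WT duodenum value was the highest of the 4, and its spinal cord values were close to the dimmest that the scanner called. The duodenum difference was -4.06 (log2) with a technical SD of 0.0720. The scanner software marked the local background beside its WT duodenum spot as an outlier, but not the spot itself.

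*Scgb2b15* read 1.18 and 1.87 on the WT and KO-labelled spinal cord arrays, neither well above background, 718 in WT duodenum and 177 in KO-labelled duodenum. It was measured in the duodenum alone. The duodenum difference was -4.27 (log2) with a technical SD of 0.0723, the largest of the 3 in size. A second *Scgb2b20* probe, far dimmer than the first, read 35.7 and 28.1 on the WT and KO-labelled duodenum arrays and was not well above background in spinal cord. It differed by -2.59 (log2, technical SD 0.144), in the same direction as the brighter probe but smaller, so the probes of this gene disagree in size.

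**Figure D2:**
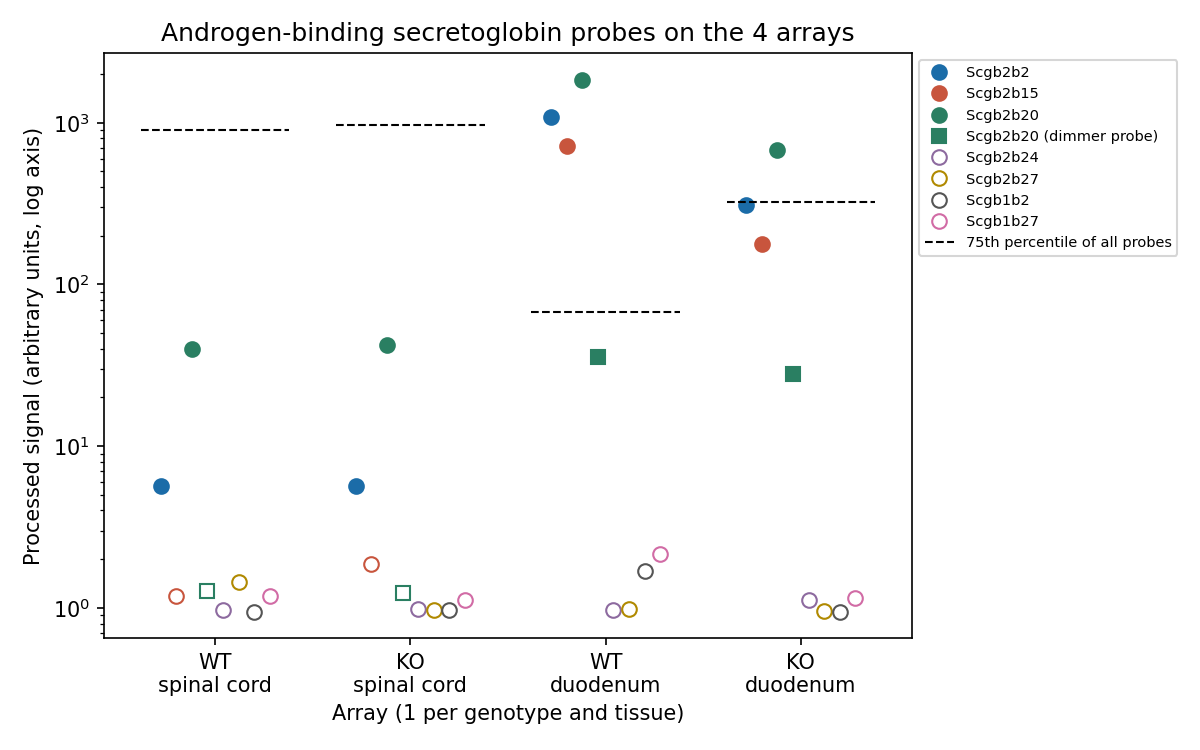
Processed signal (arbitrary units, log axis) of the 8 probes of the 7 measured members on each of the 4 arrays, with 1 array per genotype and tissue. Filled symbols are well above background, hollow symbols are not, and the dashed line is the 75th percentile of all probes on that array. *Scgb2b2*, *Scgb2b15* and *Scgb2b20* lie between 718 and 1850 in WT duodenum and between 177 and 679 in KO-labelled duodenum, while the other members stay between 0.947 and 2.15.

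The other 4 measured members gave no level. *Scgb2b24*, a beta or gamma subunit gene, read between 0.968 and 1.12 on the 4 arrays, and *Scgb2b27*, of the same class, read between 0.961 and 1.45. The alpha subunit genes *Scgb1b2* and *Scgb1b27* read between 0.947 and 1.69 and between 1.11 and 2.15. None of these spots was well above background, so no fold was taken. The 4 cluster genes with a matched probe outside the 8 were *Scgb2b19*, *Scgb2b26*, *Scgb1b24* and *Scgb1b30*, with signals from 0.893 to 3.17. They were not well above background on any array either. The alpha genes measured thus amounted to 4 of 14, and their absence from these arrays says nothing of the 10 with no matched probe.

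At a threshold of 2-fold, 3 members were lower and none higher in the KO-labelled duodenum, and 11.9% of the 21428 genes tested were lower by that much. The rule used this contrast, so nothing is read from the count or from the ranks that follow. Among the 18045 genes with a measured difference or a bound, ordered from the most negative, *Scgb2b15* was 12th, *Scgb2b2* 17th and *Scgb2b20* 34th. The scaling carries part of the size, since the signal of most genes was higher on the KO-labelled duodenum array before scaling, with a median log2 difference of 2.23. By the unscaled signal 2.32% of genes were lower there, and 0.415% were lower by 2-fold or more. The 3 members were among these. Their unscaled differences were -2.02 for *Scgb2b15*, -1.81 for *Scgb2b2* and -1.45 for *Scgb2b20*, or 4.06-fold, 3.52-fold and 2.72-fold lower. The second *Scgb2b20* probe was 1.27-fold lower unscaled, under the threshold.

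**Figure D3:**
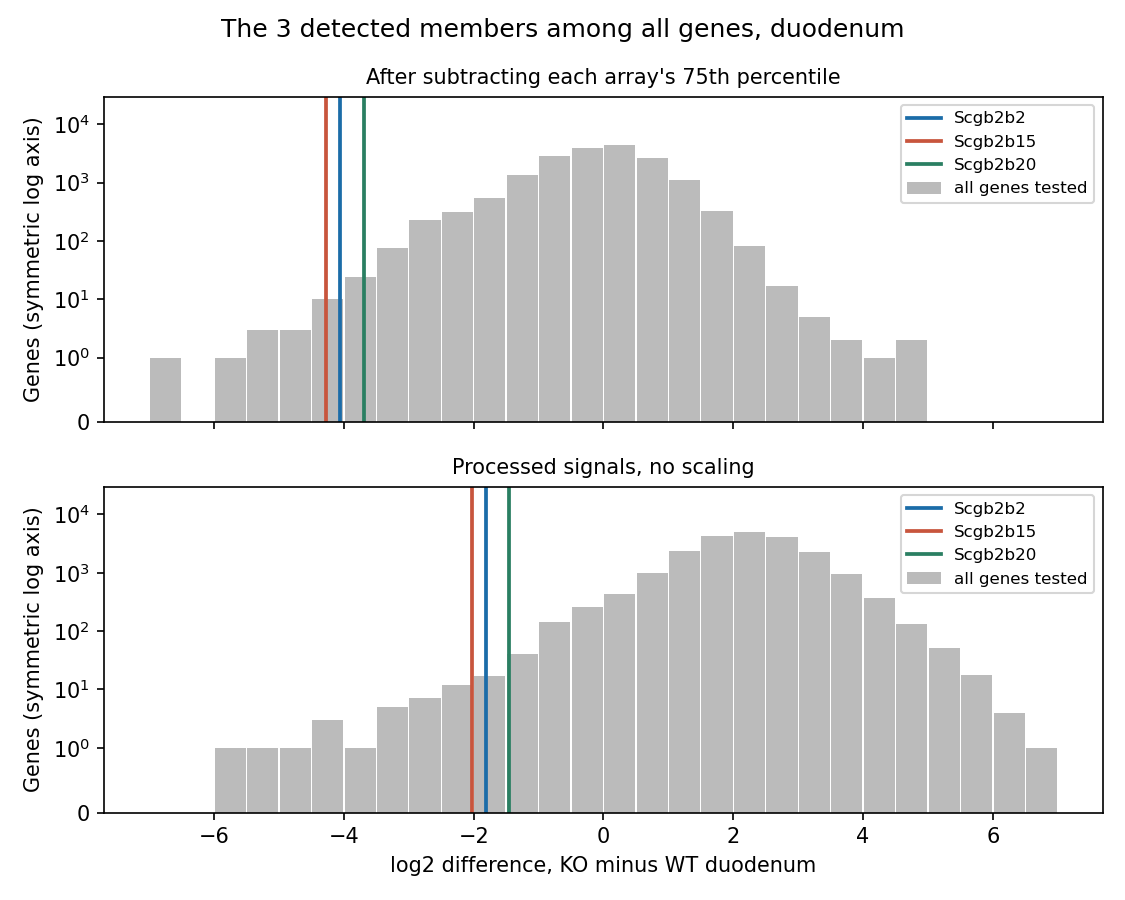
Number of genes (symmetric log axis) by log2 difference between the KO-labelled and the WT duodenum array, in bins of 0.5, after scaling to the 75th percentile (upper panel, 18045 genes) and for unscaled signals (lower panel, 21428 genes). Coloured lines mark *Scgb2b15*, *Scgb2b2* and *Scgb2b20*, which lie from -4.27 to -3.69 in the upper panel and from -2.02 to -1.45 in the lower, at the low end of both.

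The size of the duodenum difference changed with the processing and its direction did not, in any of the 12 ways tried. Not all of these could change it. The rules for dim spots could not, since the probes used were well above background on both duodenum arrays. Averaging over probes could change only *Scgb2b20*, which alone had a second probe. The deposited table holds the quantile normalization of the 4 arrays again. It ran from -4.27 to -1.27 for *Scgb2b15*, from -4.06 to -1.06 for *Scgb2b2* and from -3.69 to -0.69 for *Scgb2b20*. The smallest values came from scaling on 8 spiked-in E1A control probes, under which *Scgb2b20* missed the 2-fold threshold and the median gene was 2.89 higher on the KO-labelled array. Set against the median gene of the same processing, *Scgb2b15* was lower by 3.17 to 4.16, *Scgb2b2* by 3.01 to 3.95 and *Scgb2b20* by 2.78 to 3.58 on the log2 scale.

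**Figure D4:**
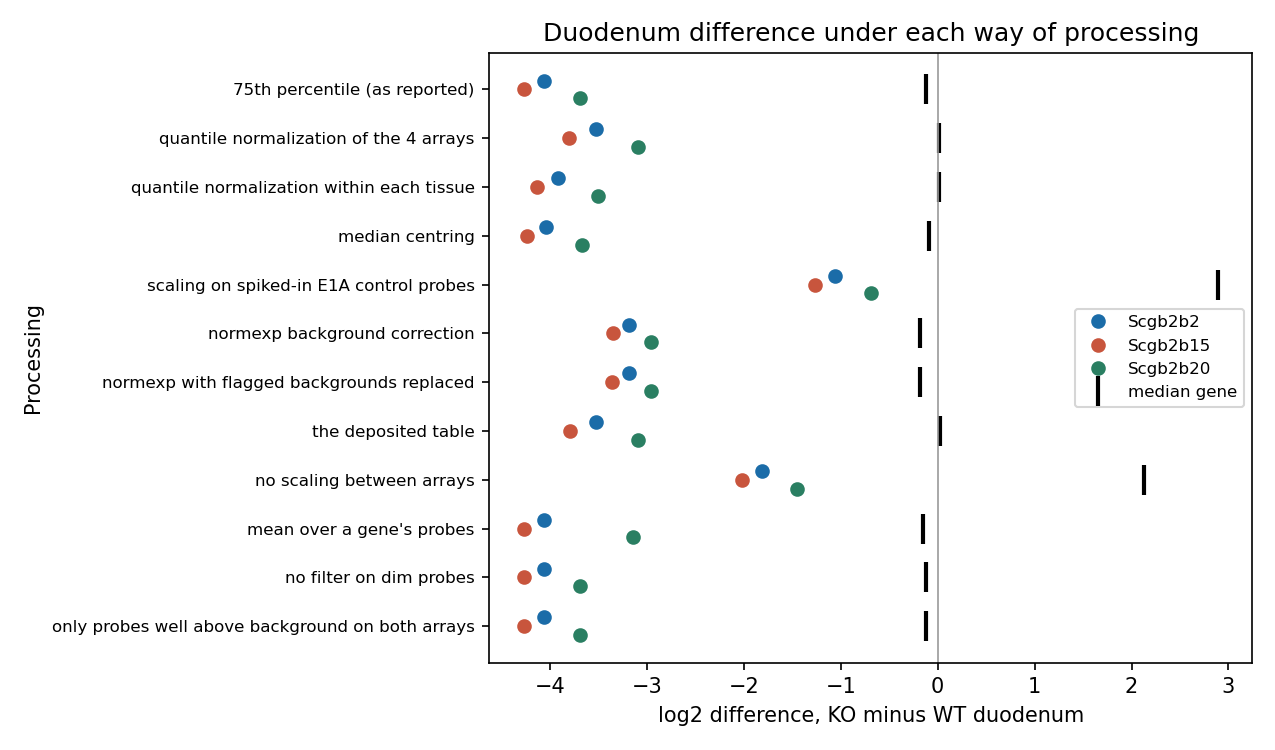
Log2 difference between the KO-labelled and the WT duodenum array for *Scgb2b2*, *Scgb2b15* and *Scgb2b20* (dots) under 12 ways of processing, with the median gene of each (black bar). All dots lie left of 0 and left of the bar of their row, and scaling on E1A control probes gives the values nearest to 0, from -1.27 to -0.69.

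In the spinal cord the members with a value were near level between genotypes. *Scgb2b2* differed by -0.12 (log2, technical SD 0.370) and *Scgb2b20* by -0.01 (technical SD 0.120), both within the spread of spots, and *Scgb2b15* had no value. None passed 2-fold, against 3.15% of the 25215 genes tested in either direction. Under plain normexp background correction, in which a local background of up to 15708 on the WT array entered, both passed it, at -2.40 and -1.91.

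Between tissues the 3 members were higher in duodenum in both genotypes. On the WT arrays *Scgb2b2* was 11.31 higher (log2) and *Scgb2b20* 9.28 higher, and *Scgb2b15*, not well above background in spinal cord, was at least 2139-fold higher. On the KO-labelled arrays the differences were 7.36 for *Scgb2b2* and 5.60 for *Scgb2b20*, and *Scgb2b15* was at least 123.9-fold higher. Such a bound sets the bright array against the lowest signal called well above background on the dim array. Of all genes, 30.2% were 2-fold higher in duodenum on the WT arrays and 30.3% on the KO-labelled arrays, and the medians of genes measured on both arrays were 0.63 and 0.30. Part of the fold again came from scaling, since unscaled signals of *Scgb2b2* were 190-fold (WT) and 54.8-fold (KO-labelled) higher in duodenum and those of *Scgb2b20* were 46.6-fold and 16.1-fold higher. For *Scgb2b15* the unscaled bounds were at least 160.7-fold and at least 41.18-fold.

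The secretoglobins outside the androgen-binding cluster had smaller differences in the duodenum. *Scgb1a1*, the club cell secretory protein of airways, was printed 10 times on each array, with median signals of 8.46 and 11.8 on the WT and KO-labelled spinal cord arrays and 27.9 and 96.3 on the duodenum arrays. The spots of the KO-labelled duodenum, from 66.4 to 137, lay above those of WT duodenum, from 18.6 to 36.6. After scaling it differed by -0.41 (log2, technical SD 0.138) in duodenum and by 0.45 (0.127) in spinal cord. *Scgb3a1*, a secreted protein also known from airway epithelium, had median signals of 38.6, 55.6, 96.4 and 322 in the same order and differed by -0.48 (0.0414) in duodenum and by 0.36 (0.0487) in spinal cord. *Scgb1c1* read 31.3 and 33.5 in spinal cord and was not well above background in duodenum. No probe matched *Scgb2a2* or *Scgb3a2*.

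The genes whose pattern over the 4 arrays lay nearest to the mean of the 3 detected members were picked by Euclidean distance among 26086 genes well above background on at least 1 array, each centred on its own mean. Values under the lowest signal called well above background on an array were raised to it, so distances of genes not detected in spinal cord, *Scgb2b15* and *Mptx1* included, rest partly on that floor. The nearest was an unnamed Ensembl transcript at a distance of 0.62, which read 8.17, 9.06, 1593 and 385 in WT and KO-labelled spinal cord and WT and KO-labelled duodenum and differed by -4.30 (log2) in duodenum. *Mptx1*, a mucosal pentraxin of the intestine, followed at 0.77, with signals of 268 and 147 on the WT and KO-labelled duodenum arrays and a difference of -3.11. Then came 2 probes with no gene name at 0.84 and 0.94, which differed by -3.63 and -2.71, and another unnamed Ensembl transcript at 0.97, which differed by -4.27. Among the members themselves the distances were 0.46 for *Scgb2b15*, 0.74 for *Scgb2b2* and 1.18 for *Scgb2b20*. The mean was taken from these same 3 genes, so their closeness to it is built in.

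Genes of androgen metabolism took several directions in the duodenum. Of 10 listed genes, all with a probe, 7 were well above background on at least 1 duodenum array, of which 1 was lower and 3 were higher by 2-fold, with a list median of 0.96. *Cyp17a1*, which makes androgen precursors, read 1187 in WT and 1027 in KO-labelled duodenum and differed by -2.46 after scaling. *Hsd17b2*, which inactivates testosterone and estradiol, read 27.8 and 502 and was 1.93 higher. *Srd5a1*, a steroid 5-alpha-reductase, read 69.2 and 815 and was 1.31 higher. *Hsd17b6*, another hydroxysteroid dehydrogenase, was not well above background in WT, read 77.6 in the KO-labelled duodenum and was at least 3.80-fold higher. In spinal cord none of the 6 genes well above background passed 2-fold, and the list median was 0.00.

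Because androgen-binding proteins are secreted by salivary and lacrimal glands, a list of 22 genes of those secretions was read beside the members. Of 20 with a probe, 9 were not well above background on any array. These were *Bpifa2*, *Prol1*, *Smr3a*, *Dcpp1*, *Dcpp2*, *Dcpp3*, *Mucl2*, *Car6* and *Lcn11*. In the duodenum 3 of 11 genes were lower and 2 higher by 2-fold, with a median of -0.30, and the list's summed signal was 63656 in WT and 166111 in the KO-labelled duodenum. The gene with the highest signal on any single array, the kallikrein *Klk1*, read 7475 and 88683 and was 1.32 higher. The growth factor *Egf* was 1.72 higher. The amylase *Amy1* differed by -1.83, and the proline-rich protein genes *Prpmp5* and *Prh1* by -1.66 and -1.55. All 3 were also well above background in spinal cord, *Amy1* at 2493 and 2246 and the others at 113 to 162. None of the 11 was lower before scaling.

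Markers of other cells took several directions in the duodenum, as given here for blood and below for other lists. All 5 blood genes were at least 2-fold lower on the KO-labelled array, with a median of -3.77, and all 5 were lower before scaling. Their summed signal was 104176 in WT and 28521 in KO-labelled duodenum, against 205639 and 339565 in spinal cord, where 3 were 2-fold higher. The alpha globin gene *Hba-a2* was the brightest, at 83828 and 21815, and differed by -4.19, *Hba-a1* by -4.05, the heme synthesis enzyme gene *Alas2* by -3.77 and the beta globin gene *Hbb-bt* by -3.01. The part of blood in the members' result was not tested.

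Of 4 Paneth cell genes measured, 3 were lower by 2-fold (median -1.60; summed signal 72104 in WT and 95380 in the KO-labelled duodenum). *Ang4*, an antimicrobial ribonuclease, read 8771 and 3792 and differed by -3.46. *Itln1* and *Lyz1*, a lectin and a lysozyme, differed by -2.10 and -1.10. Of 8 goblet cell genes 2 were lower, with a median of -0.46 and summed signals of 182440 and 385382. These were *Retnlb*, a resistin-like protein of the gut, at 117 and 5.86 (-6.57), and the brightest, the lectin gene *Zg16* (-1.56). Before scaling only *Ang4* and *Retnlb* of these lists were lower on the KO-labelled array, as the members were.

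Of 14 pancreatic acinar genes, all digestive enzymes, 9 were lower by 2-fold (median -1.61), with none lower before scaling and summed signals of 1465161 and 2402301. The brightest, *Cela3b*, differed by -2.06. *Try5*, *Ctrb1*, *Try4* and *Cpa1* differed by -2.18, -2.17, -2.08 and -2.00. Of 6 genes of duodenal gland and gastric mucus 4 were higher (median 3.29, summed signals 86910 and 343566), with *Gkn2* 4.63, *Tff1* 3.79, *Muc5ac* 3.29 and *Gkn3* 1.01 higher, and the brightest, *Tff2*, differed by -0.69. Of 11 enterocyte genes 2 were lower and 1 higher (median 0.09), namely *Fabp2* (-1.81), the brightest, *Apoa1* (-1.56) and *Slc5a1* (1.15). Of 6 smooth muscle genes 2 were lower (median -0.66), *Actg2* (-1.55) and *Des* (-1.42), and of 7 lymphocyte and myeloid genes 2 were lower (median -0.51), *S100a9* (-1.41) and *Cd79a* (-1.06). The part of these cells in the members' result was not tested.

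**Figure D5:**
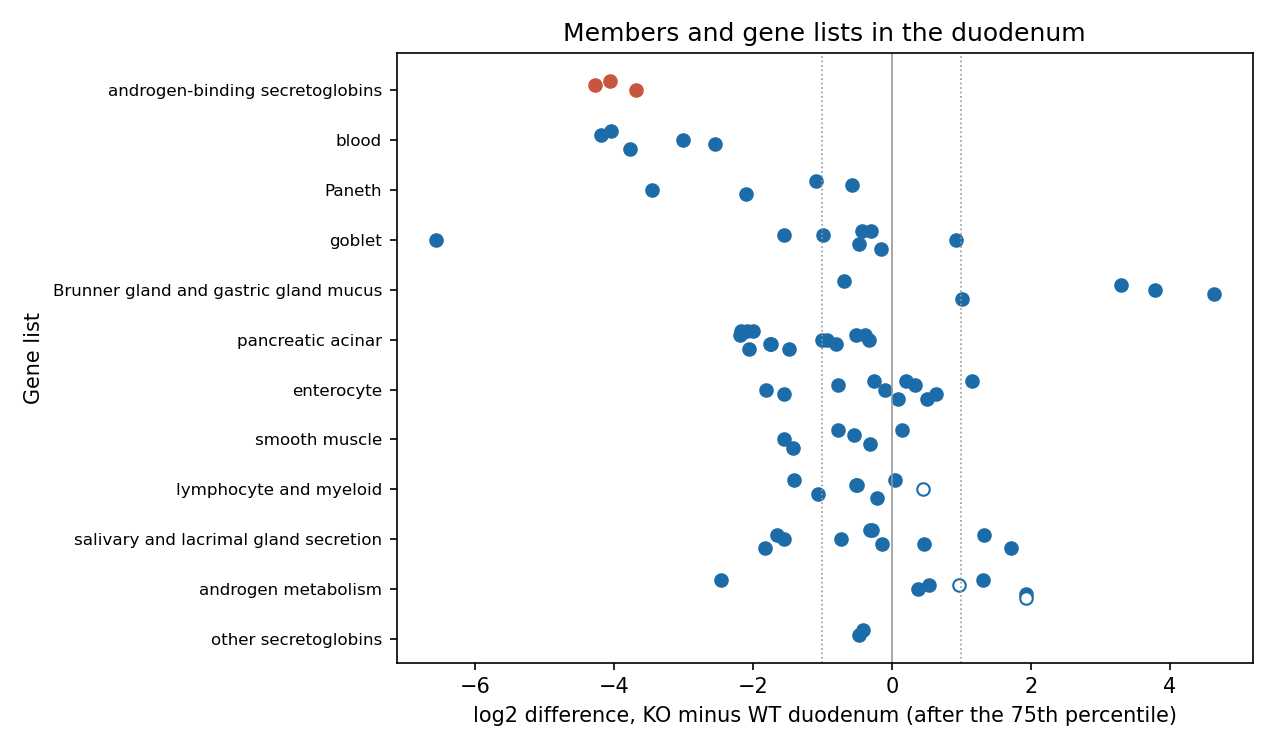
Log2 difference between the KO-labelled and the WT duodenum array, after scaling to the 75th percentile, of the 3 detected members (top row) and of the genes of 11 lists that had a value. Each dot is a gene, hollow dots are lower bounds, and dotted lines mark 2-fold. The members lie from -4.27 to -3.69 and the blood genes from -4.19 to -2.54. *Ang4* of the Paneth list lies at -3.46 and *Retnlb* of the goblet list at -6.57, while the list of gland and gastric mucus reaches 4.63.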

How the data were processed

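Total RNA of 4 samples was labelled with one dye and hybridized to Agilent arrays. The authors deposited scanner output of Agilent Feature Extraction 11.5.1.1, in which the processed signal is a background-subtracted intensity, and a table of normalized log2 values, which quantile normalization of the 4 arrays rebuilt to within 0.00282 (log2) at the 12 member values well above background. Here control and outlier spots were left out, spots of a probe were averaged, and log2 of the processed signal minus each array's 75th percentile was taken for 39418 probes. RefSeq accessions named 26575 of 28109 probes that carried one, and a gene was represented by its brightest probe. A gene was compared where it was well above background on at least 1 of the 2 arrays, with a lower bound where only 1 was, and no difference was taken where neither was. With 1 array per group, the number of arrays limits the precision and differences are described only, the threshold being 2-fold. The steps were tested on simulated data with 200 changed probes per comparison. Named genes were the members, other secretoglobins, up to 4 list genes of 2-fold difference beside each list's brightest gene, and the 5 nearest patterns. Alternatives were other normalizations and background corrections, other rules for probes and dim spots, and a threshold of 1.5-fold. Some items are not reported here. The members and lists were chosen with earlier results of these data known. Tools were Python 3.11.15, pandas 2.3.3, Biopython 1.88, R 4.3.3 and limma 3.58.1 (normexp, offset 50).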

Additional observations from a re-analysis of the deposited data

Results flagged for a closer look

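Among the named genes, 22 had scaled differences between genotypes of opposite sign in the 2 tissues, each larger than the spread of spots. With 1 array per group the difference between tissues was not tested. The value is the log2 difference in duodenum minus that in spinal cord. For the blood genes it was -4.94 (*Hba-a1*), -4.55 (*Hba-a2*), -4.17 (*Hbb-bt*), -3.79 (*Hbb-bs*) and -4.99 (*Alas2*). It was -4.79 for the unnamed Ensembl transcript that lay at a distance of 0.97 from the members' pattern. Among epithelial genes it was -3.91 for *Ang4*, -2.48 for *Lyz1*, -1.93 for *Zg16*, 5.75 for *Tff1* and 1.23 for *Gkn3*. The pancreatic genes *Try5*, *Try4* and *Ctrb1* had -4.70, -4.44 and -2.59. *Des*, *S100a9* and *Cd79a* had -4.86, -2.26 and -2.06, *Ip6k2* had -1.66, *Egf* had 2.36 and *Srd5a3*, a steroid 5-alpha-reductase gene, had 0.49. Of the other secretoglobins, *Scgb1a1* had -0.86 and *Scgb3a1* had -0.83. Before scaling, 11 of the 22 still had opposite signs and 11 did not. *Scgb1a1* and *Scgb3a1* were among the latter, since unscaled they were higher on the KO-labelled array by 1.83 and 1.77 in duodenum and by 0.55 and 0.46 in spinal cord. No member was among the 22. *Scgb2b2* and *Scgb2b20* were negative in both tissues, in spinal cord by less than the spread of spots, and *Scgb2b15* had no spinal cord value.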

How the results depend on the processing

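No paired analysis was possible because each group had 1 array. All 3 detected members stayed lower in the KO-labelled duodenum under every alternative tried, some of which could not change their values. The log2 median of the members there, -4.06 as reported, was -3.53 after quantile normalization of the 4 arrays and in the deposited table, -3.92 after quantile normalization within tissue, -3.19 under both normexp corrections, -1.06 with E1A scaling and -1.81 with no scaling, an alternative chosen after seeing the data. In spinal cord the median (-0.07) was -2.16 under plain normexp, where both members passed 2-fold (2 against 0). A local background of up to 15708 on the WT spinal cord array entered that fit, and with flagged backgrounds replaced both stayed under 2-fold. Without a filter 7 members passed in duodenum, 3 of which were well above background. The other 4 passed because signals near 1 on both arrays take on the shift between the 75th percentiles.

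The tissue difference on the WT arrays (11.06) was 10.26 under quantile normalization of the 4 arrays and in the deposited table, 8.28 within tissue, 6.02 with E1A, 4.76 and 7.08 under normexp without and with replaced backgrounds, 7.33 unscaled and 10.29 for probes measured on both arrays. On the KO-labelled arrays (6.95) it was, in that order, 6.56, 4.28, 5.09, 3.98 for both normexp fits, 5.36 and 6.48, and it was 7.23 with median centring and 7.36 without a filter.

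Of all genes in duodenum, 2555 were lower by 2-fold, and 18 with E1A, 64 unscaled where bounds were used, 12543 without a filter and 4848 at 1.5-fold. Higher were 1536, and 20605 with E1A, 843 and 841 under normexp, 3280 in the deposited table, 18209 unscaled, 2451 without a filter and 3636 at 1.5-fold. In spinal cord 219 were lower, and 144 under quantile normalization, 142 in the deposited table, 353 with E1A, 9654 and 19 under normexp, 876 without a filter, 129 for probes measured on both arrays and 811 at 1.5-fold. Higher were 575, and 85 and 173 under normexp, 1103 without a filter and 1316 at 1.5-fold. Other causes of these shifts were not tested. The number of arrays limits every value, and signals near background limit the spinal cord values.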
